A study of Caenorhabditis elegans with 4 samples.

Results

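Chromosome III carried 519 of the 2343 ChIP-seq peaks listed for the nuclear hormone receptor NHR-28 in Caenorhabditis elegans embryos. It also held 165 of 649 peaks in the list of ChIP replicate 1 and 114 of 495 in that of replicate 2. These peaks were chosen by position alone, as all rows of the deposited lists that name chromosome III, and no peak value entered the choice. They came from chromatin immunoprecipitation and sequencing (ChIP-seq) with an affinity-purified antibody against GFP. The worms were hermaphrodite embryos of the strain OP317, grown at 20 °C. OP317 carries the mutation unc119(ed3) and the integrated transgene wgIs317, which holds nhr-28 with a TY1 EGFP FLAG tag and a copy of unc119. There were 2 ChIP libraries and 2 input libraries, and all carry the same alleles. The transgene was introduced by bombardment, so what was precipitated is an added, tagged copy of the receptor. Its copy number and place of insertion are not stated by the labels. No values of the input libraries or of an untagged strain were analysed here, so no background level stands beside the peaks.

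Nuclear hormone receptors are transcription factors that grip DNA through a pair of zinc fingers and carry a second domain that can bind small lipid-like ligands. The family is greatly expanded in C. elegans, and many members have no known ligand. A ChIP-seq peak marks a stretch of DNA that was recovered more often with the tagged protein than a control would give, and says nothing by itself about whether a nearby gene responds. C. elegans autosomes have gene-dense centres that recombine rarely and arms that recombine often and hold more repeats, and unc-119 is itself a gene of chromosome III.

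Each peak has a start and end on the build WormBase WS220 and a value that the authors' peak caller PeakSeq gave it. The files leave unstated if this is a p-value or a q-value, so it is named the caller value here, and a larger −log10 caller value is a stronger peak. All 3 lists stop at a caller value of 0.001. The third list covers the series as a whole and is called series-level. Peaks of different lists count as partners when they share at least 1 bp. WS220 lengths were not used here, so densities refer to the span up to the highest peak end on each chromosome, which was 13.8 Mb for III. Separate cultures for the ChIP replicates are not named in the labels, so their spread may be only technical.

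The first comparison was of peak density on III and on the other autosomes. III had the most peaks per Mb of all 5 autosomes in each of the 3 lists. In the series-level list it held 37.7 peaks per Mb, against 24.1 over the other 4 autosomes together, a ratio of 1.56. Among these the density was 30.4 on I, 27.1 on II, 20.7 on IV and 20.3 on V. In replicate 1 III held 11.97 peaks per Mb, against 6.42 on the other autosomes, a ratio of 1.86. In replicate 2 it held 8.27 against 5.02, a ratio of 1.65. Chromosome II came next to III in each replicate list (8.05 peaks per Mb in replicate 1 and 6.16 in replicate 2), whereas I came next in the series-level list. The ratios of the replicates lay closer to each other than either lay to 1. The peaks of 1 chromosome are not replicates, and no test was made of this difference.

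**Figure D1:**
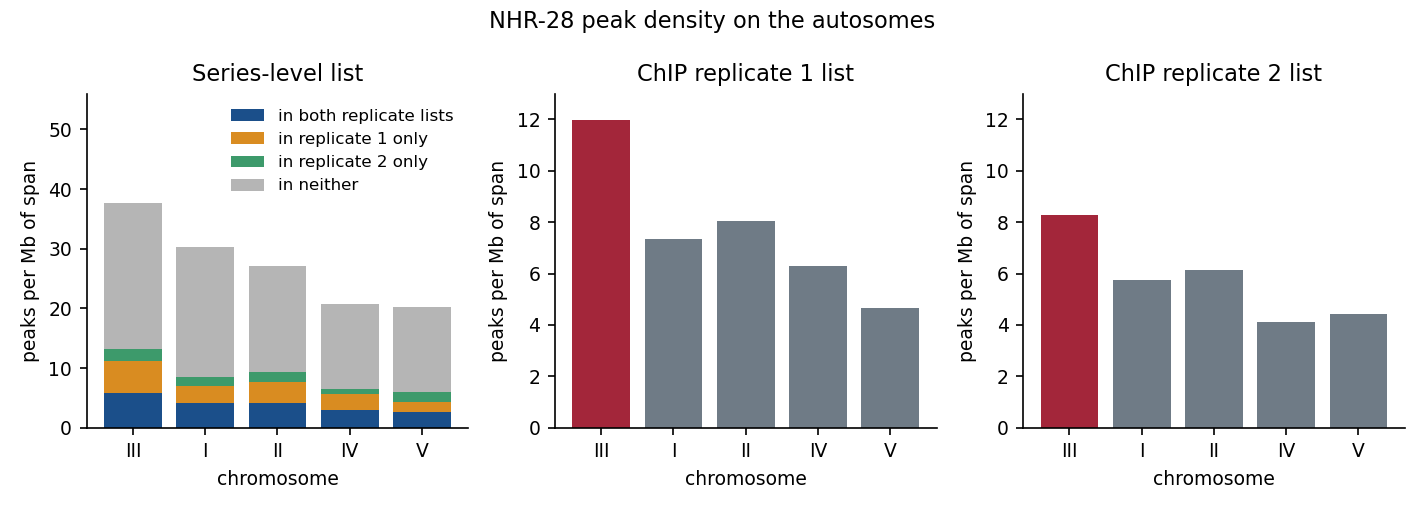
Peaks per Mb of span on each autosome, III at the left, in the series-level list (bars split by partners in the replicate lists) and in the lists of ChIP replicates 1 and 2. The III bar is the tallest in every panel, at 37.7, 11.97 and 8.27 peaks per Mb.

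The higher density of III over the other autosomes together held for strong and weak peaks alike. Sorted by rank in the whole series-level list, III held 45 of the 200 strongest peaks (22.5%, 95% Clopper-Pearson interval 16.9 to 28.9%) and 42 of ranks 201 to 400 (21%, 15.6 to 27.3%). It held 91 of the 400 peaks in ranks 401 to 800 (22.8%), 175 of the 800 in ranks 801 to 1600 (21.9%) and 166 of the 743 weakest (22.3%, 19.4 to 25.5%). The share stayed between 21% and 22.8% from the strongest group to the weakest, and all 5 intervals overlapped. Per Mb, the 200 strongest peaks gave 3.27 on III and 1.81 on the other autosomes, which ran from 1.44 on V to 2.21 on I. Single autosomes came nearer in the next groups. In ranks 201 to 400 III held 3.05 per Mb, I 2.74 and II 2.62. In ranks 401 to 800 I held more peaks than III, 97 against 91, at 6.49 per Mb against 6.60. Sites with a partner in both replicate lists numbered 5.88 per Mb on III and 3.39 on the other autosomes (4.08 on I, 4.19 on II, 2.92 on IV and 2.69 on V). Here and later the intervals describe counting error alone, and neighbouring peaks need not be independent.

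Peaks on III resembled those of the other autosomes in strength and size. The median −log10 caller value was 4.29 on III and 4.28 on the other autosomes, with quartiles of 3.51 and 6.53 on III and of 3.47 and 6.30 elsewhere. Of the III peaks, 50 (9.63%, interval 7.24 to 12.5%) were among the strongest 10% of the list, against 151 of 1652 (9.14%) on the other autosomes. The median width was 233 bp on III and 248.5 bp on the other autosomes, where it ran from 243 bp on I to 260 bp on IV. In the series-level list the median of III was thus 10 bp below that of the next autosome. In replicate 1 the median width was 276 bp on III and 302 bp elsewhere, and in replicate 2 it was 269.5 bp on III and 278.5 bp elsewhere. In replicate 2 the medians of II (265 bp) and V (262.5 bp) lay below that of III. Together the series-level peaks covered 149 kb of III, or 10.8 kb per Mb, against 7.54 kb per Mb on the other autosomes.

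Support from the replicates was the second comparison. Of the 519 III peaks, 81 (15.6%, interval 12.6 to 19.02%) had a partner in both replicate lists, against 14.6% of all series-level peaks and 14.04% (12.4 to 15.8%) on the other autosomes. A partner in at least 1 list was found for 181 III peaks (34.9%, 30.8 to 39.1%), against 31.7% of all peaks and 30.99% (28.8 to 33.3%) on the other autosomes. Chromosome II had nearly the same shares, 15.5% and 34.8%. The shares on III are close to the background and set it apart in neither respect. Of the III peaks, 73 (14.1%) were in replicate 1 only, 27 (5.20%) in replicate 2 only and 338 (65.1%) in neither. The corresponding shares on the other autosomes were 10.9%, 6.05% and 69.01%.

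From the side of the replicates, 82 of the 114 III peaks of replicate 2 (71.9%, interval 62.7 to 79.9%) had a partner in replicate 1, against 70.5% over all chromosomes. The same 82 sites were 49.7% (41.8 to 57.6%) of the 165 III peaks of replicate 1, against 53.8% over all chromosomes. Over the other autosomes these shares were 68.9% and 53.9%. The difference between the directions follows from the longer list of replicate 1. Across the 82 shared III sites the −log10 values of the replicates had Pearson's r = 0.83 and Spearman's rho = 0.65, given as a description across sites that share their libraries. The median shift between the replicates at these sites was 31.5 bp for starts and 24.5 bp for ends on III, against 29 bp and 32 bp on the other autosomes.

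Support fell with rank in a similar way on III and elsewhere. In the first 200 ranks 42 of 45 III peaks (93.3%, interval 81.7 to 98.6%) were in both replicate lists, against 120 of 124 (96.8%) on the other autosomes. In ranks 201 to 400 the counts were 25 of 42 (59.5%) on III and 85 of 137 (62.04%) elsewhere. In ranks 401 to 800 they were 12 of 91 (13.2%) on III and 22 of 278 (7.91%) elsewhere. All 87 III peaks among the 400 strongest of the list had a partner in at least 1 replicate, against 253 of 261 on the other autosomes. In ranks 801 to 1600, 2 of 175 III peaks were in both replicate lists, against 2 of 567 on the other autosomes. The 743 weakest ranks held 166 III peaks, of which 7 (4.22%) had a partner in 1 list and 0 in both. The count of 0 allows up to 2.20% by the exact interval. On the other autosomes 10 of 546 peaks in these ranks (1.83%) had a partner in at least 1 list, and 3 were in both.

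**Figure D2:**
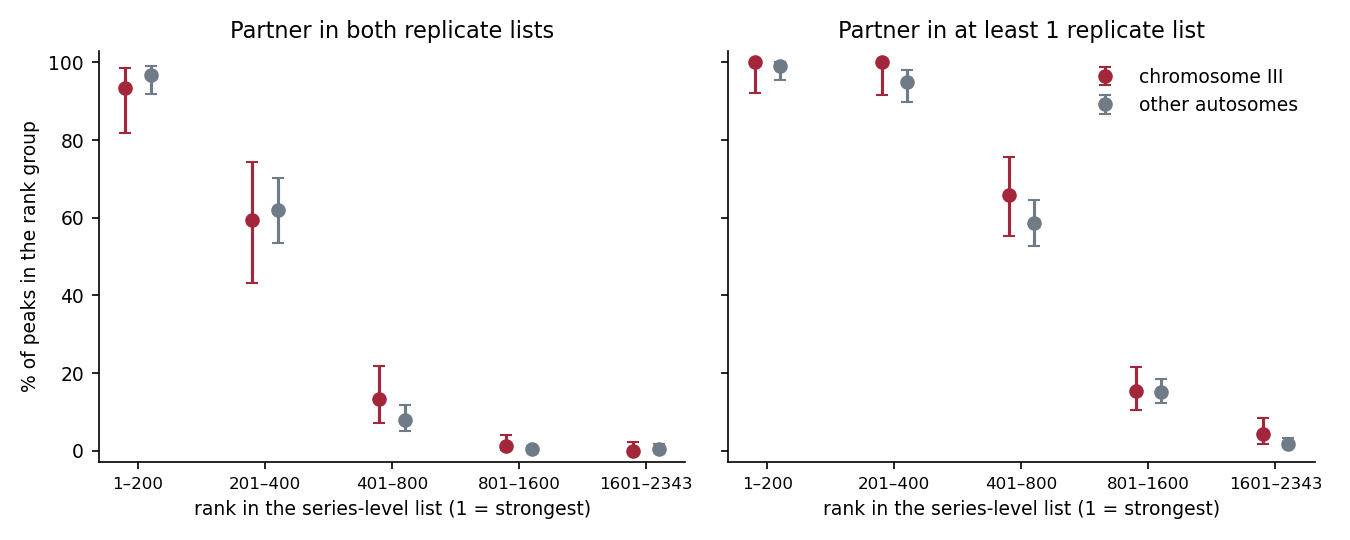
Percent of series-level peaks with a partner in both replicate lists (left) and in at least 1 (right) by rank group, for chromosome III and the other autosomes, with 95% Clopper-Pearson intervals. Support fell from 93.3% to 0% on III, and the III intervals overlapped those of the other autosomes in every rank group.

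Supported sites were stronger on III, as they were on the other autosomes, and most groups of them were also wider. The 81 sites in both lists had −log10 caller values between 3.73 and 33.2 with a median of 11.5, and the 338 in neither had values between 3.00 and 7.40 with a median of 3.72. The 73 sites in replicate 1 only had a median of 6.41 and the 27 in replicate 2 only a median of 5.57. Widths followed, with medians of 387 bp in both, 305 bp in replicate 1 only, 193 bp in replicate 2 only and 190 bp in neither. On the other autosomes the median −log10 value was 11.4 in both, 6.41 in replicate 1 only and 3.73 in neither, with median widths of 401, 312.5 and 209 bp in the same order of groups. The III list held 41 peaks under 50 bp wide (7.90%), against 129 (7.81%) on the other autosomes. Of these, 0 had a partner in a replicate list on III, against 3 in replicate 1 only and 3 in replicate 2 only on the other autosomes. The strongest of the narrow III peaks ranked 185 of 519 on III. All lists come from 1 strain and 1 caller, and the files do not say if the series-level list was called on the replicates' own reads, so the lists are not separate evidence.

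The 10 strongest III sites with a partner in both replicate lists lay between 28.1% and 94.8% of the span. The strongest, chrIII:10989354-10990051 (698 bp), had a caller value of 6.70e-34 series-level, 2.66e-17 in replicate 1 and 2.38e-15 in replicate 2. It ranked 12 in the whole series-level list, and among III peaks it ranked 3 in replicate 1 and 1 in replicate 2. Next was chrIII:3867381-3867717, a narrower site of 337 bp with 3.20e-32, 2.58e-17 and 3.22e-15 in the same order of lists. It was the second III peak in all 3 lists.

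The third site, chrIII:8043769-8044084 (316 bp, series-level 4.31e-30), was stronger in replicate 2 (4.65e-15) than in replicate 1 (1.34e-13). Its borders in the replicates differed by only 6 bp at each end. At chrIII:10460585-10461365 (781 bp, 1.61e-26) the series-level peak was far wider than its replicate partners, which measured 336 bp in replicate 1 and 309 bp in replicate 2. The series-level peak overlapped 2 separate peaks of replicate 1 and 1 of replicate 2. Replicate 1 gave the lower caller value at chrIII:10758961-10759320 (5.02e-15, against 1.34e-11 in replicate 2) and at chrIII:4237604-4238143 (5.07e-14, against 2.33e-09 in replicate 2). With 1 library per replicate these differences have no test, and values of different lists need not be on 1 scale.

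The remaining sites of the 10 were chrIII:7854443-7854769 (5.86e-23), chrIII:13070307-13071484 (8.03e-20), chrIII:4378417-4378978 (3.27e-19) and chrIII:12607893-12608816 (8.63e-19). Their values in replicate 1 were 1.07e-12, 4.17e-09, 8.25e-11 and 6.01e-09 in that order of sites, and in replicate 2 they were 4.39e-10, 2.13e-08, 3.67e-09 and 6.75e-07. Each of these 4 sites was the stronger in replicate 1. The 10 sites were 316 to 1178 bp wide, with a median of 551 bp, against 233 bp for all III peaks. None ranked lower among III peaks than 20 in replicate 1 or 24 in replicate 2. Of the 10, 5 lay in the middle 50% of the span and 5 had another series-level midpoint within 5 kb.

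**Figure D3:**
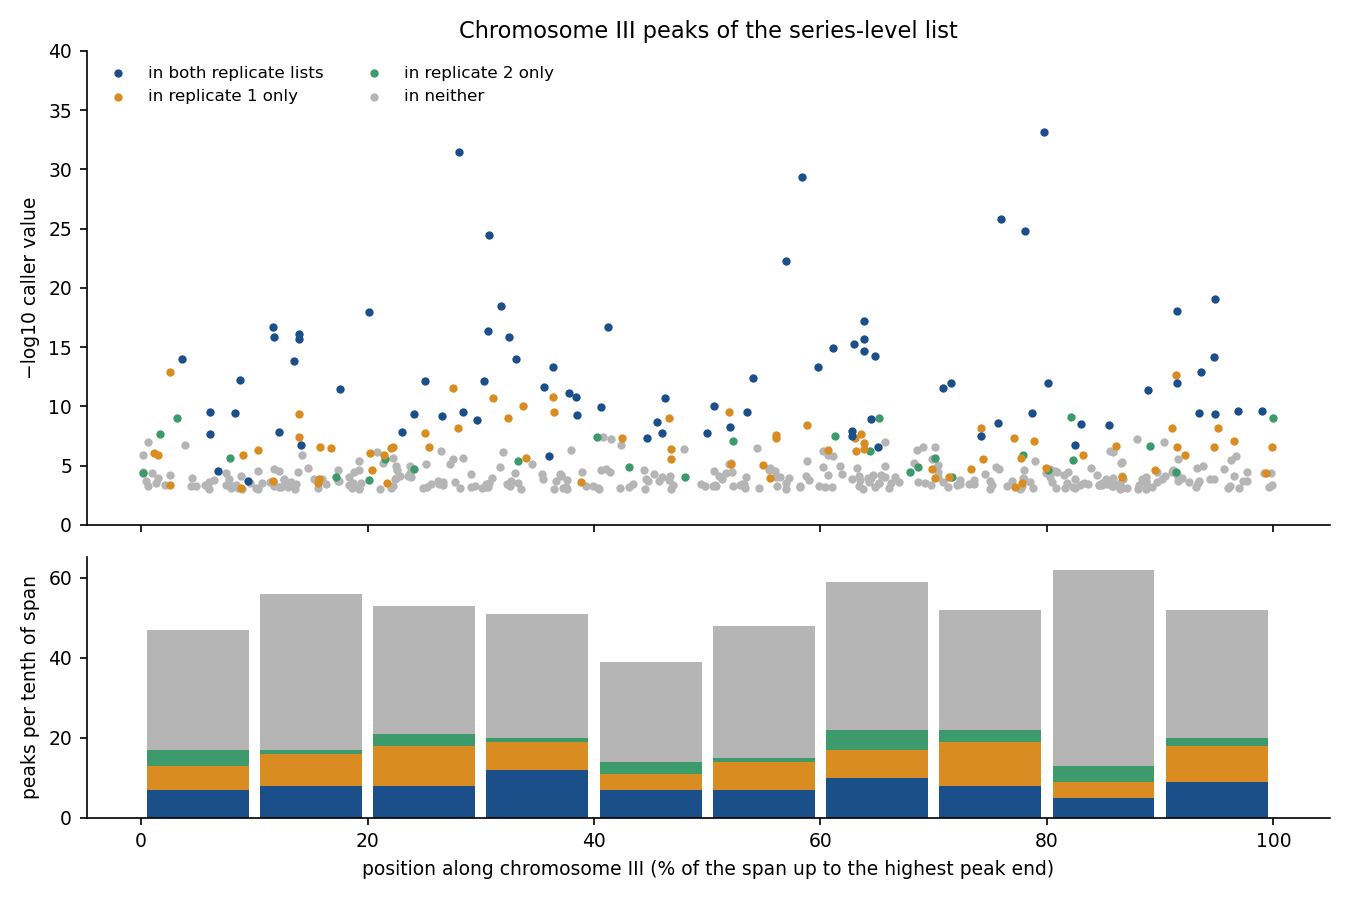
The 519 series-level peaks on III by relative position, with the −log10 caller value (above) and the number of peaks in each of 10 equal parts of the span (below), by partners in the replicate lists. The strongest site reaches 33.2, and the parts hold between 39 and 62 peaks.

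Along the chromosome the peaks were spread widely and somewhat unevenly. The middle 50% of the span held 246 of 519 peaks (47.4%, interval 43.03 to 51.8%), against 49.5% (47.02 to 51.9%) on the other autosomes. It held 49.1% of the III peaks of replicate 1 and 51.8% of those of replicate 2, and each interval contained 50%. In the 13 complete 1 Mb bins of III the series-level count ran from 28 to 50 with a median of 35. The variance of these counts over their mean was 1.42 on III. It was 2.59 on I, 3.53 on II, 1.26 on IV and 1.61 on V, so only IV was more even. For sites in both replicate lists it was 1.51 on III, below II (2.35) and above I (1.29), V (1.19) and IV (0.82). The emptiest complete bin of III, between 6 and 7 Mb, with its 28 peaks, held more than the median bin of II (24), IV (21) or V (20.5), and fewer than that of I (30.5). Every complete bin of III was thus above the median bin of 3 of the other 4 autosomes.

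The fullest bins differed in support. Between 8 and 9 Mb there were 50 peaks, of which 22 were in at least 1 replicate list and 12 in both, and 8 were among the 200 strongest of the whole list. Between 11 and 12 Mb there were 49 peaks, of which 11 were in at least 1 list and 4 in both, and 1 was among the 200 strongest. The bin between 1 and 2 Mb also held 49 peaks, with 17 in at least 1 list and 10 in both. Median −log10 values were 5.62, 4.02 and 3.73 in these bins. Equal numbers of series-level peaks thus went with different numbers of supported sites. The bin between 4 and 5 Mb held only 35 peaks, but 9 in both lists and 7 of the 200 strongest.

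The longest stretch of III without any series-level peak ran for 202 kb from chrIII:6615299 to 6816907, followed by 178 kb from chrIII:13465435 to 13643474. Neither held a peak of either replicate list. The 3 next, of 130, 127 and 126 kb, held 1 replicate peak among them. The longest distance between neighbouring midpoints was 202 kb on III and between 265 and 649 kb on the other autosomes. Density moves with this value. The mean distance was 26.6 kb on III, against 33.0 kb on I, 36.9 kb on II, 48.1 kb on IV and 49.4 kb on V. Mapped read coverage of these stretches was not analysed here.

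Peaks on III lay closer together than on the other autosomes. Another series-level midpoint lay within 5 kb of 224 III peaks (43.2%, interval 38.9 to 47.5%), against 33.9% over all chromosomes and 33.4% (31.08 to 35.7%) on the other autosomes, where the highest share was 35.7% on II. The share was also higher on III in each replicate list, 25.5% against 17.05% in replicate 1 and 14.04% against 12.5% in replicate 2. Single autosomes came near: I reached 22.7% in replicate 1, inside the III interval of 19.0 to 32.8%, and IV reached 13.9% in replicate 2, where the III interval was 8.24 to 21.8%. The median distance to the nearest midpoint was 7.02 kb on III and 9.68 kb on the other autosomes. Density moves with this result. When the distance was set to 0.2 of each chromosome's own mean spacing, the share was 44.3% on III, 39.9% on I, 46.4% on II, 49.9% on IV and 44.4% on V. On that scale III lay inside the range of the others.

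**Figure D4:**
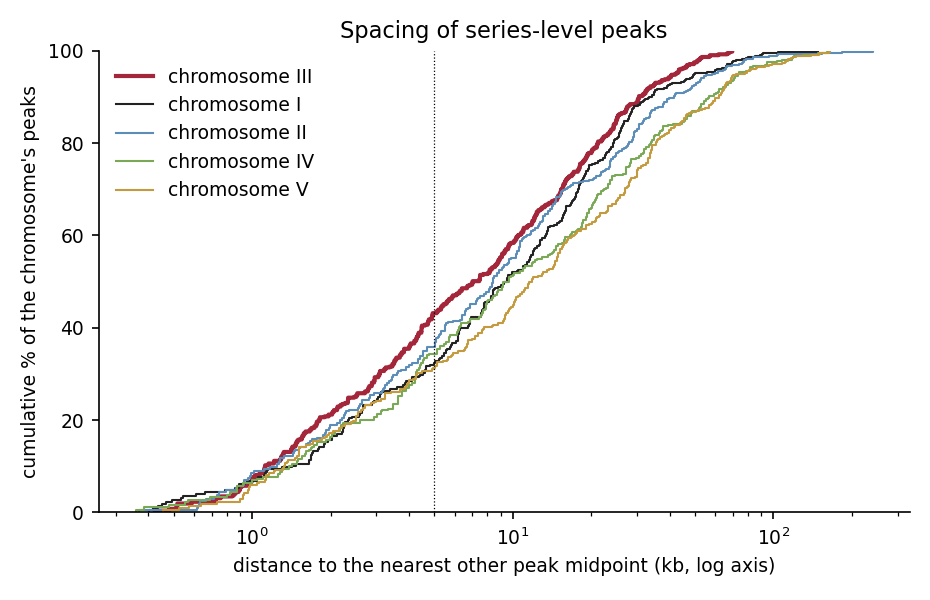
Cumulative percent of series-level peaks by distance to the nearest other midpoint (log axis) for each autosome, with a dotted line at 5 kb. At the line III stands at 43.2% and the highest other autosome, II, at 35.7%.

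Midpoints closer than 10 kb were chained into clusters. III gave 332 units, of which 216 were single peaks, 72 pairs, 28 triplets and 16 larger. The larger ones numbered 11 of 311 units on I, 15 of 270 on II, 7 of 253 on IV and 8 of 302 on V. The largest cluster held 9 peaks on III, as on II and V. Of the III peaks, 46 of the 303 in clusters were in both replicate lists (15.2%), against 35 of the 216 single ones (16.2%). On the other autosomes these shares were 16.5% in clusters against 10.1% of single peaks on I, 16.7% against 14.0% on II, 17.3% against 10.8% on IV and 11.7% against 14.5% on V. Of the 16 larger clusters of III, 7 held a peak found in both lists, 2 had every peak in at least 1 list and 3 had none. The support of larger clusters was not counted on the other autosomes.

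The cluster with the best support lay at chrIII:8794659-8802595. It held 5 peaks in 7.94 kb, all 5 with a partner in replicate 1 and 3 of them also in replicate 2. The 3 supported by both were chrIII:8801596-8802595, chrIII:8799779-8800879 and chrIII:8794659-8795080, with −log10 caller values of 17.2, 15.7 and 14.7 and ranks 12, 19 and 23 on III. The peaks between them reached 6.91 and 6.37. No 20 kb window of III held more replicate 1 peaks than these 5, and the other autosomes reached 3 or 4. No 20 kb window of III held more than its 3 sites in both lists, a number also found at chrIII:13059285-13071484, and the other autosomes reached 2. Such peaks were also denser on III, at 11.97 per Mb against 6.42 in replicate 1 and 5.88 against 3.39 in both lists. The 20 kb windows and 10 kb clusters were not scaled to density. A similar group at chrIII:1920942-1926841 held 4 peaks in 5.90 kb, 2 in both lists and 2 in replicate 1 only, with −log10 values from 7.37 to 16.1.

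The densest 20 kb window by number, chrIII:12597288-12617272, was of mixed support. It held 9 peaks, as many as the densest window of V and more than those of I (5), II (8) and IV (5). Of its 9 peaks 2 were in both lists, 2 in replicate 1 only, 1 in replicate 2 only and 4 in neither. The strongest was chrIII:12607893-12608816 with a −log10 value of 18.1, followed by chrIII:12598261-12599140 with 12.7 and chrIII:12612304-12612792 with 12.0. The 4 peaks without partners lay side by side at its right end, between chrIII:12613982 and 12617272, with −log10 values from 3.68 to 5.60. Another group, chrIII:13059285-13071484, held 5 peaks in 12.2 kb, of which 3 were in both lists. In contrast, 5 peaks at chrIII:11822463-11834975 and 4 each at chrIII:2648112-2656525 and chrIII:12226120-12235190 had no replicate partner. The best caller value in these 3 groups was 7.05e-07, rank 149 on III.

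Peaks of at least 1000 bp numbered 7 on III, of which 5 were in both lists. Such peaks were not counted on the other autosomes, where the widest series-level peak reached 3053 bp. These counts therefore have no background. The widest, chrIII:13778074-13781241 (3168 bp, caller value 8.88e-10), was the last peak of the chromosome and its end set the span. Replicate 2 listed it nearly whole, at 3132 bp with 1.95e-05, and replicate 1 did not list it. The next, chrIII:158799-160799 (2001 bp, 8.22e-07), lay near the opposite end and was in replicate 1 only, with 5.81e-04. The third was chrIII:13070307-13071484, a site in both lists, where the replicate peaks measured 577 and 475 bp within the 1178 bp of the series-level peak.

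At 4 III sites found in both replicate lists the caller value was weaker in the series-level list than in either replicate list. The other 77 sites in both lists were stronger in the series-level list than in both replicates. The 4 sites were picked by caller value, and values of different lists need not be on 1 scale. At chrIII:7446777-7447880 −log10 reached 12.4 series-level, 23.3 in replicate 1 and 14.2 in replicate 2. This was the strongest III peak of replicate 1 and the fourth of replicate 2, but rank 34 on III in the series-level list. At chrIII:10224459-10225338 the values were 7.50, 15.2 and 14.1, at chrIII:931226-931869 they were 4.51, 12.2 and 11.6, and at chrIII:1299605-1300476 they were 3.73, 11.5 and 10.9, each in the same order of lists.

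Relative to the stronger replicate, the series-level −log10 value at these 4 sites differed by -10.9 to -7.66, against 2.49 to 16.6 at the other 77. On the other autosomes 5 of 232 sites in both lists were weaker in the series-level list than in each replicate. These were 1 of 61 on I, 0 of 64 on II, 1 of 51 on IV and 3 of 56 on V. With 4 of 81, III was thus not set apart from V. The replicate peaks also had nearly the same borders at these sites. Start and end differences summed to 1 bp at chrIII:1299605-1300476, 2 bp at chrIII:7446777-7447880, 7 bp at chrIII:10224459-10225338 and 14 bp at chrIII:931226-931869. The part of these like borders in the weaker series-level values was not tested. Without the 4 sites, r over the remaining 78 shared III sites was 0.78 and rho was 0.60. Among III peaks in 1 replicate list, 5 of 100 were weaker series-level, all of them in replicate 1 only, against 3 of 280 on the other autosomes.

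**Figure D5:**
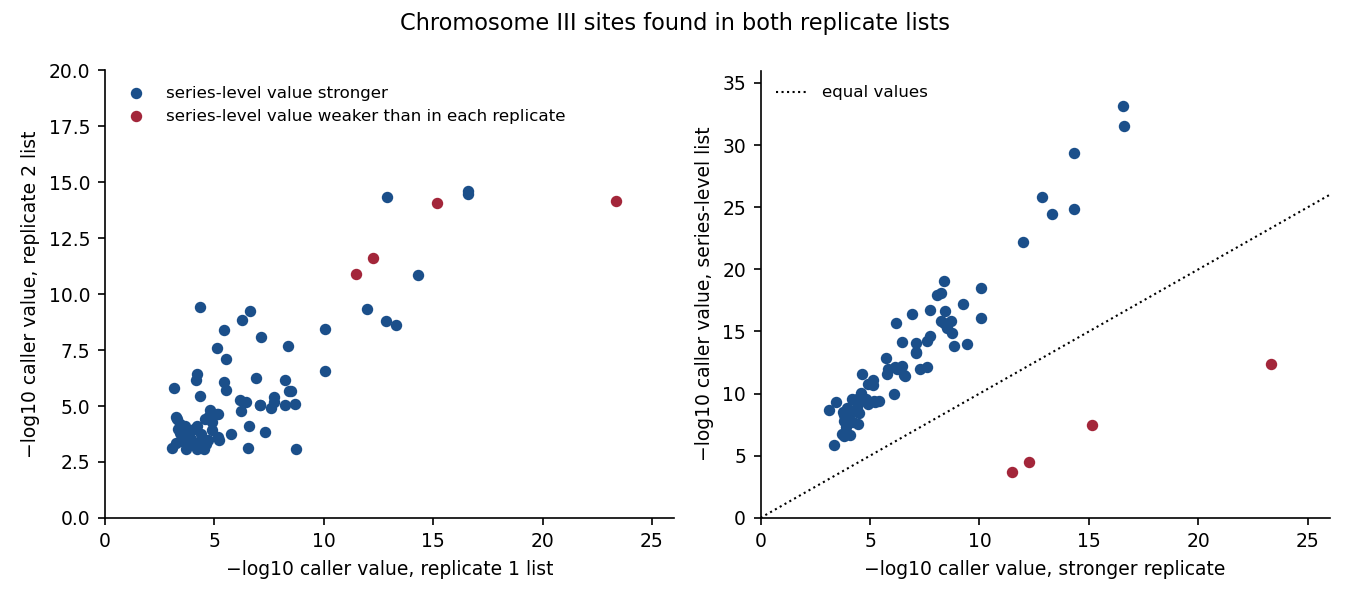
The 81 series-level sites of III with a partner in both replicate lists, by −log10 caller value in replicates 1 and 2 (left) and in the stronger replicate and the series-level list (right, dotted line at equal values). The 4 sites in red lie 7.66 or more below the line and the other 77 lie above it.

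Some replicate peaks on III had no partner in the other replicate. The strongest replicate 1 peak without a replicate 2 partner was chrIII:4281990-4282544 (1.74e-08, rank 21 on III in that list), followed by chrIII:3801238-3801937 (3.97e-08) and chrIII:349460-350079 (1.26e-07). All 3 had series-level partners, with caller values of 2.00e-11, 2.70e-12 and 1.36e-13. The strongest replicate 2 peaks without a replicate 1 partner were chrIII:11316877-11317203 (9.47e-07, rank 27), the end peak described above and chrIII:8446951-8447173 (2.08e-05). Their series-level values were 8.23e-10, 8.88e-10 and 3.50e-08. Conversely, the strongest series-level III peak in neither replicate list was chrIII:5621127-5621733 (3.95e-08), which ranked 463 in the whole list and 101 on III. It was followed by chrIII:12123087-12123261 (6.03e-08) and chrIII:5722012-5722131 (6.04e-08).

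Ranks among III peaks differed by over 100 between a replicate list and the series-level list at 32 sites. The series-level list holds 519 III peaks, replicate 1 holds 165 and replicate 2 holds 114. A weak series-level peak with a replicate partner must therefore differ by this much, so list length in part sets the count. The same count was not made on the other autosomes. Of the 32, 3 were in both replicate lists, chrIII:931226-931869 and chrIII:1299605-1300476 described above and chrIII:11036102-11036517. The last had caller values of 1.10e-12 series-level, 6.80e-04 in replicate 1 and 1.58e-06 in replicate 2, and ranked 40, 152 and 28 on III in the same order of lists. Its peak in replicate 1 was 171 bp wide, against 376 bp in replicate 2 and 416 bp series-level. Among the sites in 1 list, chrIII:5358104-5358469 ranked 372 on III series-level and 49 in replicate 1, and chrIII:354577-354846 ranked 415 and 69. Both differences were fixed by list length to exceed 100, as were those at chrIII:931226-931869 and chrIII:1299605-1300476.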

How the data were processed

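NHR-28 ChIP-seq peak lists of 2 ChIP replicates and of the whole series were used. Positions are on WormBase WS220, per the file headers, and the deposited lists name PeakSeq as the caller. The deposited value is the authors' p-value or q-value per peak. For the caller's version, the aligner, read filters, use of the input and any pooling: not given in the sources used here. Read depth is unknown, so no precision from reads can be given. No WS220 genome or annotation was used here, so peaks stand without genes and no sequence is shown.

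Lists were read as deposited, with no filter, in Python 3.11.15 with pandas 2.3.3 and scipy 1.17.1. Overlap, spacing, 20 kb windows, 10 kb clusters and Clopper-Pearson intervals (95%) were computed with code tested on simulated data. Peaks of 1 chromosome are not replicates, so no p-values were computed. Sites named were the 10 strongest in both replicate lists, the 3 strongest without partners in each list, the 3 widest, the densest window and sites whose rank on III differed by over 100 between lists (of 32, the 3 in both replicate lists and 2 examples chosen after their values were seen). The clusters of 4 or more peaks, bins, stretches without peaks and sites with weaker series-level values were picked after their values were seen. Members and lists were chosen with earlier results of these data known.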

Additional observations from a re-analysis of the deposited data

How the results depend on the processing

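The density ratio of III over the other autosomes stayed above 1 in every setting run: 1.60 for the 1171 strongest peaks, 1.56 for peaks of 50 to 2000 bp, 1.45 with 1 peak per 10 kb cluster and 1.74 for sites in both replicate lists. With 1 replicate list in place of the series-level list it was 1.65 to 1.86. These ratios were added after the data were seen. The III share of peaks was 20.4% with 1 peak per 10 kb cluster, which removes more peaks where they are dense, 23.9% of autosomal peaks, and 23.03% to 25.4% in the replicate lists. The share in both replicate lists was 12.5% with a shared length of 50% of each peak and 31.1% within the 1171 strongest, and that in at least 1 list was 30.1% and 63.4%. Of the 10 strongest sites, chrIII:10460585-10461365 and chrIII:13070307-13071484 had 0 partners under the 50% rule and with midpoints within 200 bp. The share with a neighbour was 21.2% at 2 kb, 58.4% at 10 kb and 77.8% at 20 kb, 27.2% among the 1171 strongest peaks and 14.04% to 25.5% in the replicate lists, where peaks are fewer. Apart from the replicate lists, these alternative partner and neighbour shares were not computed on the other autosomes. They therefore have no background and do not compare III with it. The densest 20 kb window of III held 3 to 5 peaks in the replicate lists. The middle 40% of the span held 38.0% of III peaks, and the middle 50% held 54.3% of those in both replicate lists. The median width was 316 bp for the 1171 strongest, 248 bp for 50 to 2000 bp, 387 bp in both replicate lists and 269.5 to 276 bp in the replicate lists. The median −log10 caller value was 6.55, 4.47 and 11.5 in the first 3 of these settings and 4.09 to 4.25 in the replicate lists. The strongest 5% and 20% of the list held 4.24% and 19.7% of III peaks. Of 59 alternative values of the main results, 30 moved beyond the interval, replicate spread or fold range set for the main value. Some of these settings redefine the measure and so shift it by design, such as other neighbour distances, the middle 40% and the strongest 5% or 20%. The count therefore does not gauge how stable the results are. No paired analysis was possible because the input libraries had no values in use here.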

Other observations

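Of the III peaks, 156 of 165 in replicate 1 (94.5%) and 108 of 114 in replicate 2 (94.7%) had a series-level partner, against 94.5% and 96.4% over all chromosomes. Of the 9 III peaks of replicate 1 and 6 of replicate 2 without one, 2 sites were in both replicate lists. The site at chrIII:7594550-7595103 in replicate 1 (caller value 1.87e-06) was shifted by 1 bp at each end in replicate 2 (3.97e-04). The site at chrIII:1301539-1301903 in replicate 1 (7.52e-05) shared its start with replicate 2 (5.89e-04) and differed by 2 bp at the end. It lay 1063 bp from chrIII:1299605-1300476, one of the sites with weaker series-level values. Shared sites whose start and end differences summed to at most 5 bp numbered 4 of 82 on III, these and chrIII:1299605-1300476 and chrIII:7446777-7447880, against 12 of 237 on the other autosomes.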
